A study of Mus musculus with 19 samples.

Results

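Blood leukocytes of DBA/2 and B6 mice were compared on microarrays after administration of CAWS. Of 41174 non-control probes, 56 were called well above background in all mice of 1 strain and in none of the other. A probe was taken as detected where Feature Extraction called its spot well above background. The first set holds 30 probes of 29 genes that were detected on all 10 DBA/2 arrays and on none of the 9 B6 arrays. The second holds 26 probes of 26 genes that were detected on all 9 B6 arrays and on none of the DBA/2 arrays. Probes of Klr and H2- genes were left out by name, which removed Klra6 and H2-Q10 from the B6 set and none from the DBA/2 set. The members were chosen on the detection calls in both strains, so that their strain differences are given as a description, with no test.

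CAWS is a water-soluble fraction of Candida albicans that causes vasculitis when it is injected into mice, and DBA/2 mice are used as a strain in which this disease is severe and B6 mice as one in which it is milder. All mice were male. The study describes intraperitoneal injections of CAWS, at 0 or 1 mg for each mouse, and the sample titles name no dose. All samples were taken as those of mice given CAWS, since the study counts the weeks from its administration. No group is titled as uninjected, and 0 w, right after the last injection, served as the start. The DBA/2 groups were 0 w, 2 w, 4 w, 8 w and, as the last, 9 w after CAWS, with 2 samples in every group. The B6 groups had 2 samples at 0 w, 2 at 4 w, 2 at 8 w, and a single sample for 2 w and another for 9 w. Only mice that had survived could be sampled at the later weeks. The methods of the study state that RNA of single mice was hybridized, and the labels call the samples of a group biological replicates. The replicate label of 1 DBA/2 2 w sample also carries a technical replicate number that its title lacks, and the title was followed. B6 0 w replicate 2 was hybridized to 2 arrays, which were averaged, and the 19 arrays therefore hold 18 RNA samples.

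Each probe on this platform is a short DNA oligonucleotide that binds labelled RNA of matching sequence. Inbred strains such as DBA/2 and B6 differ at many fixed positions of the genome, which include deletions, duplications and single base changes. A gene that is silent or missing in 1 strain leaves its probe dim there, and so does a transcript that lacks the stretch the probe was made for or carries a changed base in it. From 1 probe these cannot be told apart, and other probes of the same gene are given further on for that reason. In bulk RNA, fewer cells of a type and less RNA per cell cannot be told apart either.

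Signals are given as scaled signals, the processed signal after each array was set to the same 75th percentile. The share of spots well above background ran from 34.9% to 51.3% over the DBA/2 arrays and from 33.9% to 51.4% over the B6 arrays. All 3 general leukocyte markers were detected on all 19 arrays, as were all 5 B cell, 4 NK cell, 5 erythroid and 4 platelet markers. The summed signal of the erythroid markers reached 1108917 to 2666033 in B6 and 1299778 to 1977088 in DBA/2 samples. The 9 hepatocyte markers on the array summed to 16987 and 17698 in the B6 0 w samples and to 8698 and 9676 in the B6 8 w samples, and to between 240.3 and 627.0 in all others. No marker gene of any of these lists was a member.

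The 30 probes detected in DBA/2 mice had median scaled signals from 24.7 to 529.8 there and from 2.90 to 10.1 in B6 mice. The 26 probes detected in B6 mice had medians from 25.0 to 326.4 there and from 2.17 to 7.0 in DBA/2 mice. No member was saturated, and no member spot was marked as an outlier. In each set the dimmest array of the detecting strain lay above the brightest array of the other, as the rule all but requires. The distance was 0.28 to 5.47 log2 units in the DBA/2 set (median 2.21) and 0.19 to 5.15 in the B6 set (median 2.36). For comparison, all DBA/2 samples lay above all B6 samples at 3.24% of the 22976 probes tested over the whole array, and all B6 samples above all DBA/2 samples at 2.69%. A signal that is not well above background is only a bound, so fold differences are given as "at least". The mean log2 signal of the detecting strain was set against a limit averaged over the samples of the other strain. On each array that limit was the lowest signal called well above background, or the probe's own signal where that was higher. Single samples of the strains can lie closer together than these mean bounds. These bounds ran from 1.99-fold to 36.0-fold in the DBA/2 set (median 4.78-fold) and from 2.25-fold to 27.7-fold in the B6 set (median 6.17-fold).

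**Figure D1:**
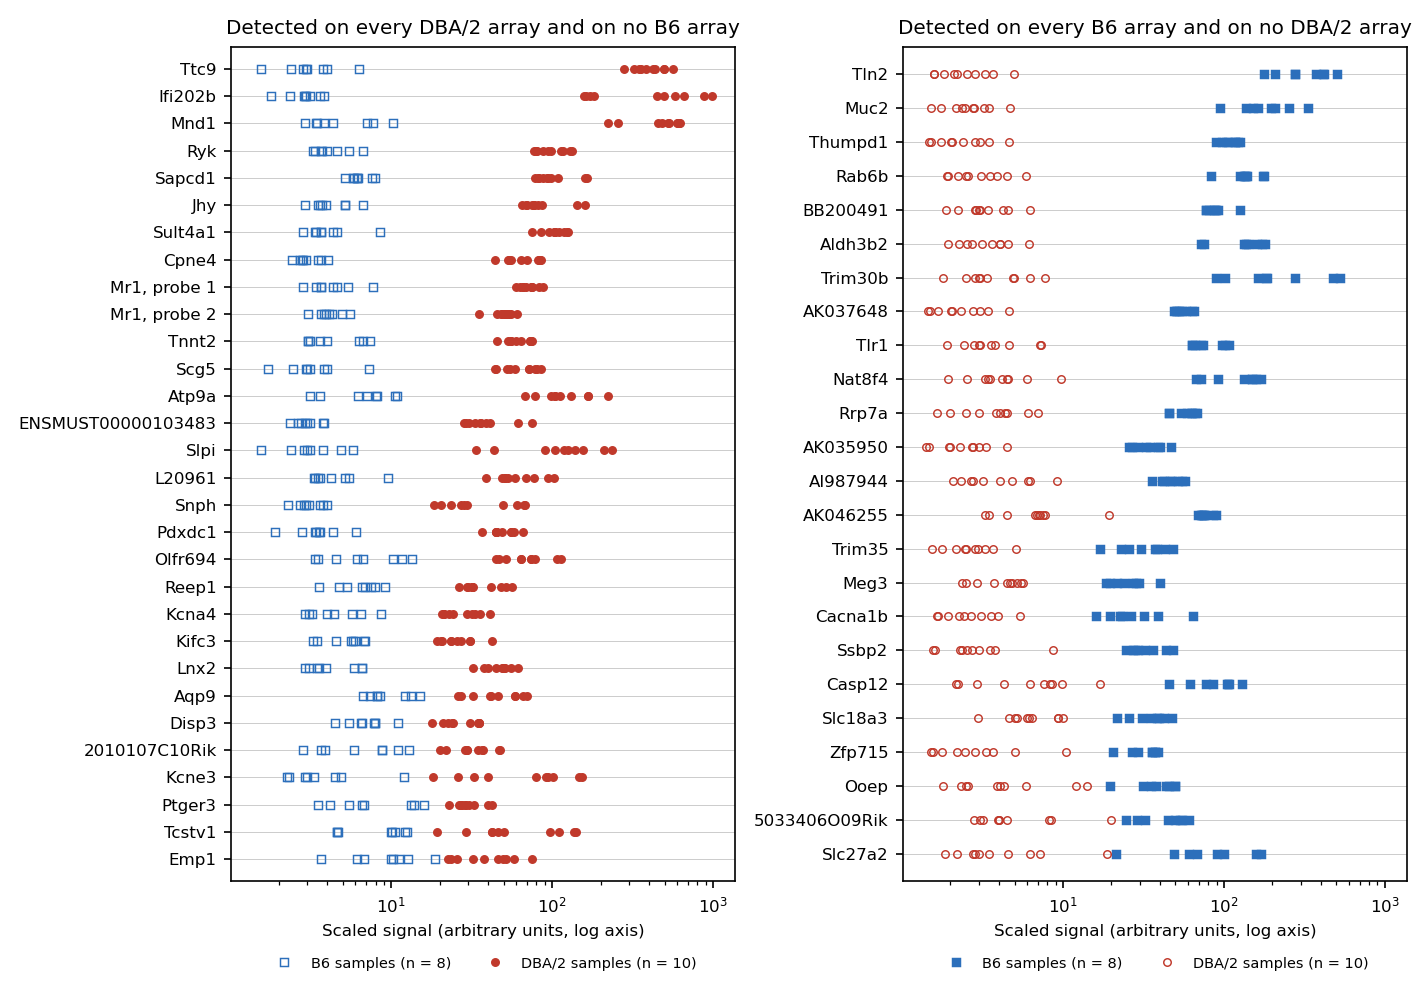
Scaled signals (log axis) of 54 of the 56 member probes in each of the 10 DBA/2 samples (circles) and 8 B6 samples (squares), filled for the strain that detected the probe. Members are ordered by the distance between the strains, which ran from Ttc9 (5.47 log2 units) to Emp1 (0.28) in the left panel and from Tln2 (5.15) to Slc27a2 (0.19) in the right.

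Among the DBA/2 probes, 3 exceeded the B6 limit at least 10-fold. Mnd1, which acts in strand exchange between chromosomes during meiosis, ranged from 221.4 through a median of 529.8 to 624.1 in DBA/2 mice and reached no more than 10.3 in B6 mice, a difference of at least 36.0-fold. Ttc9, which encodes a tetratricopeptide repeat protein, ranged from 280.0 through 402.9 to 564.0 against at most 6.31, at least 31.0-fold. Ifi202b, an interferon-inducible HIN-200 protein that binds DNA in the cytosol, ranged from 158.5 through 474.3 to 989.5 against at most 3.81, at least 29.2-fold. At all 3 probes the dimmest DBA/2 array lay 3.62 log2 units or more above the brightest B6 array.

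Further DBA/2 probes belonged to genes with roles in immunity. Mr1, the major histocompatibility complex class I-related molecule that presents vitamin B metabolites to T cells, was the only gene with 2 member probes. They lie about 1.0 kb apart on chromosome 1 and gave 59.6 through 71.7 to 87.4 and 35.3 through 51.1 to 60.3 in DBA/2 mice, with at most 7.66 and 5.54 in B6 mice. Both were among the steadiest members, with a highest signal 1.47-fold and 1.71-fold the lowest over the 10 DBA/2 samples. Slpi, an inhibitor of neutrophil serine proteases, ranged from 33.8 through 121.9 to 235.1 against at most 5.83 in B6 mice. Ptger3, a receptor for prostaglandin E2, ranged from 22.9 through 29.0 to 42.2 and lay close to the limit, with up to 16.0 in B6 mice. A pair of probes, L20961 and ENSMUST00000103483, are described in the files as immunoglobulin heavy chain variable sequences, and they gave medians of 56.3 and 36.0 in DBA/2 mice against at most 9.54 and 3.84 in B6 mice.

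The other DBA/2 members belong to no family fixed for this comparison, and many are best known from tissues other than blood. Membrane and transport genes were Atp9a (a P4-type ATPase, median 108.0, at least 9.07-fold above B6), Kcne3 (a potassium channel subunit, 85.7, at least 4.86-fold), Kcna4 (a voltage-gated potassium channel, 26.8, at least 2.11-fold), Aqp9 (a water and glycerol channel, 43.7, at least 3.33-fold), Emp1 (an epithelial membrane protein, 41.8, at least 2.99-fold) and Disp3 (27.7, at least 2.08-fold). Receptors and signalling genes were Ryk, a Wnt receptor (median 96.3, at least 7.65-fold), Cpne4, a calcium-dependent phospholipid-binding protein (66.7, at least 5.08-fold), Lnx2, a ubiquitin ligase (48.9, at least 3.58-fold), and the olfactory receptor Olfr694 (68.8, at least 5.29-fold). Genes best known from neurons, endocrine cells or muscle were Sult4a1, a brain sulfotransferase (median 104.1, at least 7.80-fold), Scg5, a chaperone of a prohormone convertase (65.2, at least 4.83-fold), Tnnt2, cardiac troponin T (62.1, at least 4.78-fold), Snph, which anchors mitochondria in axons (28.9, at least 2.70-fold), and Reep1 (32.2, at least 2.80-fold). The remaining ones were Sapcd1 (median 93.3, at least 7.83-fold), Jhy (77.2, at least 6.64-fold), Tcstv1 (48, at least 4.38-fold), Pdxdc1 (47.3, at least 3.82-fold), the clone 2010107C10Rik (32.2, at least 2.48-fold) and Kifc3, a kinesin (24.7, at least 1.99-fold).

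In the B6 set 7 probes exceeded the DBA/2 limit at least 10-fold. Tln2, a talin that links integrins to actin, ranged from 176.5 through 326.4 to 506.3 in B6 mice and reached no more than 4.99 in DBA/2 mice, at least 27.7-fold. Trim30b, of the Trim30 group of ubiquitin ligases, ranged from 89.1 through 184.7 to 529.7 against at most 7.76, at least 18.4-fold. Muc2, a secreted gel-forming mucin best known from the gut, ranged from 93.9 through 179.5 to 335.3 against at most 4.70, at least 15.9-fold. Of the other 4, those named here were the small GTPase gene Rab6b (median 136.9, at least 12.0-fold), the aldehyde dehydrogenase gene Aldh3b2 (139.2, at least 11.3-fold) and the acetyltransferase gene Nat8f4 (140.8, at least 10.4-fold). None of the 7 came closer than 2.77 log2 units to a DBA/2 array.

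Innate immune genes in the B6 set were Tlr1, which with Tlr2 recognizes bacterial lipoproteins, Casp12, an inflammatory caspase, and Trim35. Tlr1 ranged from 63.3 through 72.8 to 107.0 in B6 mice and reached 7.27 in DBA/2 mice. Casp12 ranged from 45.7 through 95.4 to 129.2, with 16.9 in the brightest DBA/2 sample, and Trim35 ranged from 17.1 through 33.9 to 48.1, with at most 5.08. Genes of RNA and ribosome metabolism were Thumpd1 (median 111.9, at least 9.65-fold) and Rrp7a (60.9, at least 5.09-fold), and Thumpd1 varied by no more than 1.40-fold over the 8 B6 samples. Slc27a2, a fatty acid transporter and acyl-CoA synthetase of liver and kidney, had a median of 79.6 (at least 6.53-fold) and the transcription cofactor gene Ssbp2 30.9 (at least 2.91-fold). The zinc finger gene Zfp715 had a median of 35.6 (at least 2.83-fold) and AI987944 47.0 (at least 4.13-fold). Ooep, an oocyte gene, had a median of 40.7, Slc18a3, the vesicular acetylcholine transporter, 36.7, Cacna1b, a neuronal calcium channel, 25.0, and the imprinted noncoding RNA gene Meg3 25.8, with bounds of at least 3.25-fold, 3.02-fold, 2.46-fold and 2.25-fold. A further 5 probes carry clone or accession names in the files, of which BB200491 (median 87.3, at least 7.86-fold) and AK046255 (74.7, at least 6.76-fold) were the brightest relative to the limit. The others were AK037648 (median 53.7), 5033406O09Rik (47.2) and AK035950 (33.8).

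Members near the limit were separated less clearly. The 3 DBA/2 probes with the smallest distance between strains were Emp1 (0.28 log2 units), Tcstv1 (0.34) and Ptger3 (0.51), and the 3 B6 probes were Slc27a2 (0.19), 5033406O09Rik (0.30) and Ooep (0.46). A single array kept 26 further probes from the DBA/2 set and 18 from the B6 set. Of the 26, AK090125, A630038E17Rik and Cuedc1 are named for their large measured differences, and each was called on B6 8 w replicate 1. That array, which had the highest share of detected spots, accounted for 13 of the 26. Of the 18, 5830417I10Rik, Gsta1 and Zfp37 are named in the same way, and each was called on DBA/2 9 w replicate 2. Their signals in the other strain are bounds on all further arrays, so that no size is given.

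A probe that was not well above background was rarely at background throughout. The weaker call of the software, which asks only whether a signal is positive and significant, was made on at least 1 B6 array for all 30 DBA/2 probes, on a median of 5 of the 9. Sapcd1 and Aqp9 had it on all 9 B6 arrays. In the B6 set it was made on a median of 2 of the 10 DBA/2 arrays, and on none for Tln2, Thumpd1, Rab6b and Cacna1b. Under that call alone, 3 probes would be detected in only DBA/2 mice and 10 in only B6 mice. None of the 3 is among the 30 members, and at most 4 of the 10 are among the B6 members.

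The arrays lay on 6 slides, of which 2 held both strains. The calls on these arrays are part of the rule, which fixes the direction on any slide, so that only the sizes are given. On the slide with DBA/2 9 w replicate 1 and 3 B6 arrays, the smallest distance between the strains was 0.93 log2 units in the DBA/2 set and 1.55 in the B6 set. On the slide with DBA/2 9 w replicate 2 and B6 0 w replicate 2 it was 1.32 and 2.15. The part of the slide in the strain differences was not tested.

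Ifi202b and Trim30b were the members from interferon-inducible gene families, 1 in each set, and the promoter sequence of each (RefSeq, GRCm38.p6) is given here. Both windows are those of the reference genome, and whether DBA/2 mice carry the same bases was not determined. No link between these sequences and the time courses given below was tested. Each runs 5′ to 3′ over 300 bases, 250 before and 50 after the annotated start. Capitals mark a match to TTCNNNGAA, the gamma-activated sequence bound by STAT factors. The core of the interferon-stimulated response element, GAAA followed by any 2 bases and GAAA again, was also searched, and both motifs were read on both strands.

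Ifi202b, minus strand, chr1:173982795-173983094: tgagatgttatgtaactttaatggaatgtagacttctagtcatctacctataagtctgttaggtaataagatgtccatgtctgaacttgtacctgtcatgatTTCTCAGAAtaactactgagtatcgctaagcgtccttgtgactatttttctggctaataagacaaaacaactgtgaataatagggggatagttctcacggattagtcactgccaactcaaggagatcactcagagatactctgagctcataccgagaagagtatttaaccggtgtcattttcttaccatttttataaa

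Trim30b, minus strand, chr7:104358597-104358896: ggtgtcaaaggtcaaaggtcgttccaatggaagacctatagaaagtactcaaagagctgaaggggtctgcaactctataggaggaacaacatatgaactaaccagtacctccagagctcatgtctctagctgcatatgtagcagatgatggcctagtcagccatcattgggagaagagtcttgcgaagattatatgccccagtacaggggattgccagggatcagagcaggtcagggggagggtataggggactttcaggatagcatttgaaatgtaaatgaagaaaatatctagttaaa

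The Ifi202b window held 1 match to TTCNNNGAA, 148 bases before the start, and the Trim30b window held none. Over all 32851 promoters of the table, 8.30% held TTCNNNGAA and 3.44% held the response element core. Of the 51 promoters of the 37 member genes that the table lists, 5 held the former and 0 the latter.

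HIN-200 proteins sense DNA and respond to interferon, and their genes lie side by side on chromosome 1. Of 18 HIN-200 probes, 15 were bright enough to be tested, and Ifi202b was the only member. Of the other 14, DBA/2 samples all lay above B6 samples at 1 (3.24% of all probes) and B6 samples all lay above DBA/2 samples at 6 (2.69%). The HIN-200 probe with the largest difference in the other direction was one of Ifi203, with a median of 541.5 in B6 mice and 10.4 in DBA/2 mice, which missed the rule through calls on 3 DBA/2 arrays. Another Ifi203 probe gave 111.3 in B6 and 109.1 in DBA/2 mice, and the last gave 20.7 and 33.6, so that probes of 1 gene differed in size and direction. One of 3 Ifi205 probes was detected on all arrays, with 1006 in B6 and 297.0 in DBA/2 mice, and the other two on none.

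The Trim5-Trim12-Trim30 group, antiviral ubiquitin ligases that lie together on chromosome 7, had 12 probes on the array, all of them tested, and Trim30b was the only member. B6 samples all lay above DBA/2 samples at 4 of the other 11 (2.69% of all probes) and DBA/2 samples above B6 samples at none (3.24%). A Trim12a probe had a median of 817.8 in B6 mice and 14.5 in DBA/2 mice, where 4 arrays were called, and another Trim12a probe had 91.8 and 14.7. One Trim30d probe was detected on 8 B6 arrays and no DBA/2 array (medians 38.2 and 2.94), whereas the other was detected on all 19 (101.0 and 59.0). Both Trim30a probes were detected on all arrays, and their strains overlapped.

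**Figure D2:**
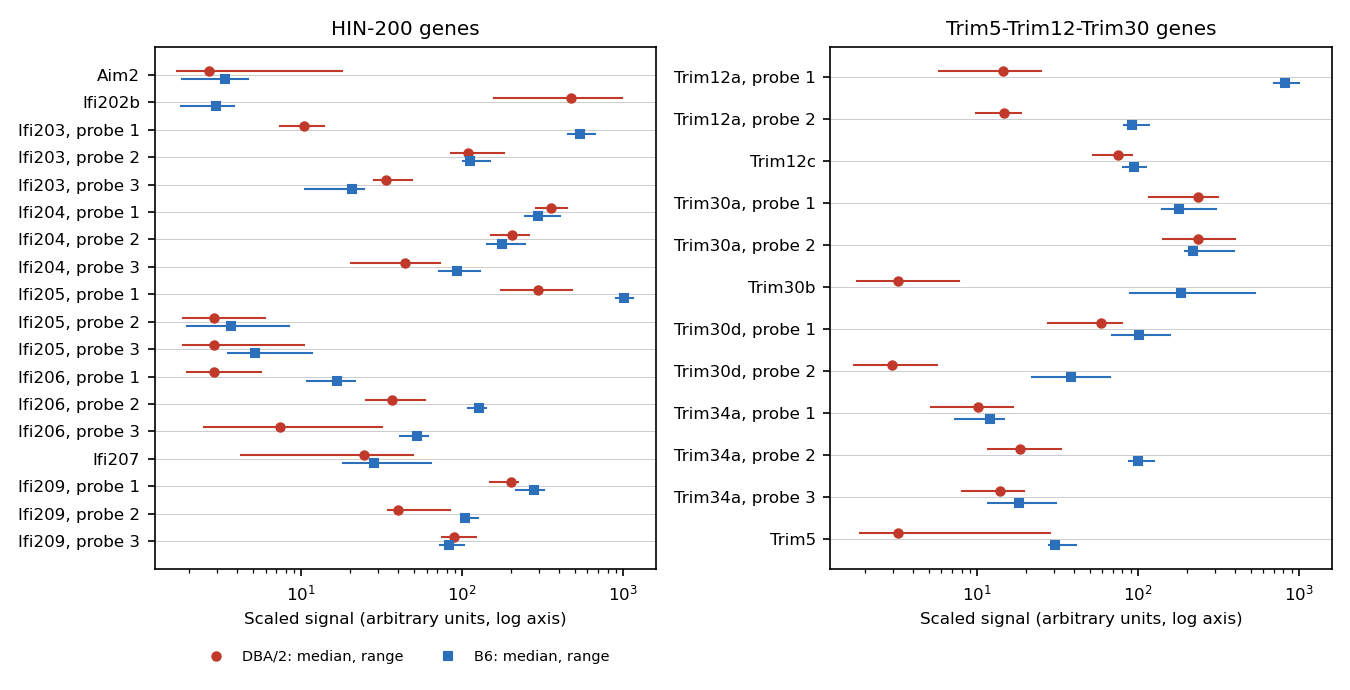
Median (symbol) and range (line) of the scaled signal (log axis) in 10 DBA/2 samples (circles) and 8 B6 samples (squares) for the 18 HIN-200 probes and the 12 probes of the Trim5-Trim12-Trim30 group. Ifi202b is the probe with DBA/2 far above B6 (medians 474.3 and 2.94), and Trim30b, Trim12a and the first Ifi203 probe have B6 far above DBA/2.

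None of the other gene families listed by symbol held more than 1 member. The zinc finger genes, with 676 probes, held Zfp715, and a list of 16 genes with textbook B6 or DBA/2 alleles held Ifi202b. No member was found among probes of Schlafen, Naip and Nlrp, interferon-inducible GTPase, paired immunoglobulin-like receptor, C-type lectin, Ly6, Ms4a, serpin, glutathione transferase, Apobec3 and Oas, NKG2D ligand, Fc gamma receptor, eosinophil ribonuclease, immunoglobulin (by symbol), T cell receptor, endogenous retroviral or ribosomal protein genes. Of 54 probes described as immunoglobulin heavy chain, a list added after the data had been seen, 2 were members and both were detected in DBA/2 mice.

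Some members lay near each other on the map of the files (mm8). Ifi202b (chr1:175799497-175800526) and BB200491 (chr1:175703010-175703069), which were detected in opposite strains, lay 96.5 kb apart, and the 3 Ifi203 probes lie between them. Ryk (chr9:102765261-102765321) and Rab6b (chr9:103043359-103043418), also of opposite direction, lay 278.1 kb apart, and a probe of Slco2a1 between them was detected on all 19 arrays with medians of 70.0 in DBA/2 and 83.2 in B6 mice. The immunoglobulin probes lay 288.6 kb apart on chromosome 12, and Rrp7a and Sult4a1 961.3 kb apart on chromosome 15. Chromosome 7 held 9 members, 16.4% of those with a position against 7.31% of all probes with one, and chromosome 9 held 8, 14.5% against 5.71%. Whether a probe lay in a coding exon or a noncoding part of its transcript was not determined here.

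The time course of a member within its own strain was not used by the rule and was tested. Each probe was compared over the 5 weeks, and the mean of 4 w and 8 w was compared with 0 w, with a threshold of 0.05 after adjustment over all tested probes. A member had to stay well above background at every week, which limits how far it could fall. In the main comparison all 18 samples share 1 estimate of spread. Over all samples of a strain, the log2 signals of most members varied more in the strain where they were near background. The median SD was 0.48 against 0.38 for the DBA/2 set and 0.64 against 0.40 for the B6 set. These SDs include change between weeks, which the shared estimate of spread does not. The counts from a fit to the samples of the detecting strain alone are therefore given beside the main ones.

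In DBA/2 mice 9 of the 30 members changed over the weeks, where 33.0% of all probes did. At 4 w and 8 w 3 were higher than at 0 w (9.71% of all probes) and 4 were lower (12.0%), and the median change of the 30 was -0.065 log2 units against -0.132 over all probes. From DBA/2 samples alone, 16 changed over the weeks (25.1% of all probes), with 5 higher (8.35%) and 6 lower (10.3%) at 4 w and 8 w. The shares of members called were thus near those of all probes in the main comparison and above them in DBA/2 samples alone. All probes here include ones detected in as few as 2 samples, whereas the members were detected in every DBA/2 sample. The part of this in the shares was not tested. With 1 or the other DBA/2 0 w sample left out, which leaves 1 sample at 0 w, both counts of the main comparison were lower. The share of all probes called in those fits was not determined.

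Slpi had scaled signals of 43.5 and 33.8 in the DBA/2 samples at 0 w, 104.8 and 90.6 at 2 w, 156.1 and 138.4 at 4 w, 235.1 and 210.3 at 8 w and 125.7 and 118.0 at 9 w. The samples of all later weeks lay above both at 0 w, and Slpi was higher by 2.24 ± 0.40 (SE) log2 units at 4 w and 8 w, or 4.72-fold (adjusted p = 0.00359). Ifi202b had 162.4 and 158.5 at 0 w, 181.9 and 172.2 at 2 w, 498.6 and 449.9 at 4 w, 989.5 and 884.6 at 8 w and 659.6 and 578.5 at 9 w. It rose by 2.05 ± 0.26 log2 units, or 4.14-fold (adjusted p = 0.000437), with the rise after 2 w. Kcne3 had 40.2 and 32.6 at 0 w, 26.2 and 18.2 at 2 w, 91.4 and 80.0 at 4 w, 153.8 and 146.3 at 8 w and 100.9 and 93.8 at 9 w. It rose by 1.64 ± 0.32 log2 units, or 3.12-fold (adjusted p = 0.00559). In all 3 the signals at 8 w were the highest of the 5 weeks, and the summed neutrophil markers ran from 39646 and 40084 at 0 w to 264130 and 295913 at 8 w in DBA/2 mice, with 104904 and 108756 at 2 w and 100114 and 119983 at 9 w. The summed monocyte or macrophage markers ran from 35483 and 37620 at 0 w to 81110 and 91109 at 8 w, and the NK cell markers from 1130 and 1135 to 1979 and 2021, both highest at 8 w. The part of these cell types in the 3 changes was not tested.

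The 4 members that fell in DBA/2 mice did so by less. Jhy had 159.0 and 142.3 at 0 w and 65.3 to 86.5 at the later weeks, a change of -0.98 ± 0.26 log2 units at 4 w and 8 w (adjusted p = 0.0261). Sapcd1 had 165.8 and 159.6 at 0 w and 78.8 to 108.6 later (-0.81 ± 0.10, adjusted p = 0.000453). Both immunoglobulin probes fell, ENSMUST00000103483 from 74.5 and 61.3 at 0 w to between 28.3 and 41.3 later (-0.95 ± 0.21, adjusted p = 0.0108), and L20961 from 102.1 and 94.1 to between 38.8 and 77.6 (-0.89 ± 0.20, adjusted p = 0.0127). At these 4 probes all later samples lay below both at 0 w. Beside them, the summed B cell markers of DBA/2 mice were 9971 to 10675 at 0 w and 4931 to 7316 later, and the part of B cell number was not tested.

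A different course was seen in the main comparison at Cpne4, Ryk and Reep1, which changed over the 5 weeks (adjusted p = 0.0389, 0.00763 and 0.0268) but did not pass when 4 w and 8 w were set against 0 w (adjusted p = 0.603, 0.834 and 0.149). Cpne4 was lower at 2 w and 9 w, with 53.2 and 55.9 and with 44.4 and 53.8, than at 0 w, with 81.3 and 85.1. Ryk had its highest signals at 2 w, with 129.4 and 116.5, and at 9 w, with 133.8 and 114.2, against 87.8 and 80.2 at 0 w. Reep1 had its highest at 2 w, with 56.4 and 51.5 against 29.4 and 26.4 at 0 w, and it passed against 0 w at 4 w and 8 w in DBA/2 samples alone (adjusted p = 0.0289), whereas Cpne4 did not pass over the weeks there (adjusted p = 0.0548). Mnd1, which did not pass in the main comparison (adjusted p = 0.0713), had 256.1 and 221.4 at 4 w and 453.5 to 624.1 at all other weeks, and it passed in DBA/2 samples alone (adjusted p = 0.00193). The other members did not pass over the weeks in the main comparison, among them both Mr1 probes (adjusted p = 0.670 and 0.711).

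In B6 mice none of the 26 members changed over the weeks in the main comparison, where 33.8% of all probes did, and none was higher (7.01%) or lower (7.28%) at 4 w and 8 w. The median change was -0.058 log2 units against -0.079 over all probes. The B6 samples of 0 w and 8 w are those with high hepatocyte markers, and 0 w is the reference of all these comparisons. The part of this in the counts and in the shares of all probes was not tested. B6 samples alone gave 8 members that changed over the weeks (16.9% of all probes), 2 higher (3.36%) and 2 lower (3.22%) at 4 w and 8 w. That fit has 3 residual degrees of freedom, and the weeks 2 w and 9 w have 1 sample each. The count over the weeks was 1 without B6 2 w replicate 1 and 1 without B6 9 w replicate 2 in the main comparison.

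In B6 mice Trim30b had 101.3 and 89.1 at 0 w, 186.3 at 2 w, 183.0 and 163.2 at 4 w, 529.7 and 477.8 at 8 w and 274.7 at 9 w. All later samples lay above both at 0 w, and the difference at 4 w and 8 w was 1.63 ± 0.50 log2 units, with an adjusted p of 0.0589 from all samples and of 0.00660 from B6 samples alone. The summed neutrophil markers of B6 mice were 20493 and 20862 at 0 w, 153449 and 163045 at 8 w and 79052 at 9 w, and their part in Trim30b was not tested. The clone 5033406O09Rik was higher in B6 samples alone (0.84 log2 units, adjusted p = 0.0382), within a range of 24.6 to 61.1 over the 8 samples. Aldh3b2 was lower there (-0.73, adjusted p = 0.0218), with 172.7 and 160.9 at 0 w and 75.7 and 71.7 at 8 w.

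Slc27a2 was also lower at 4 w and 8 w in B6 samples alone (-1.06 log2 units, adjusted p = 0.0138), with 170.0 and 158.1 at 0 w, 21.4 at 2 w, 61.1 and 68.2 at 4 w, 99.7 and 90.9 at 8 w and 48.9 at 9 w. Its highest signals, at 0 w and 8 w, fell in the 4 B6 samples whose hepatocyte markers were high, and their part in this gene was not tested. With those 4 samples left out, an alternative chosen after seeing the data, 62 probes were detected in only DBA/2 mice and 40 in only B6 mice, which follows in part from the smaller number of arrays.

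**Figure D3:**
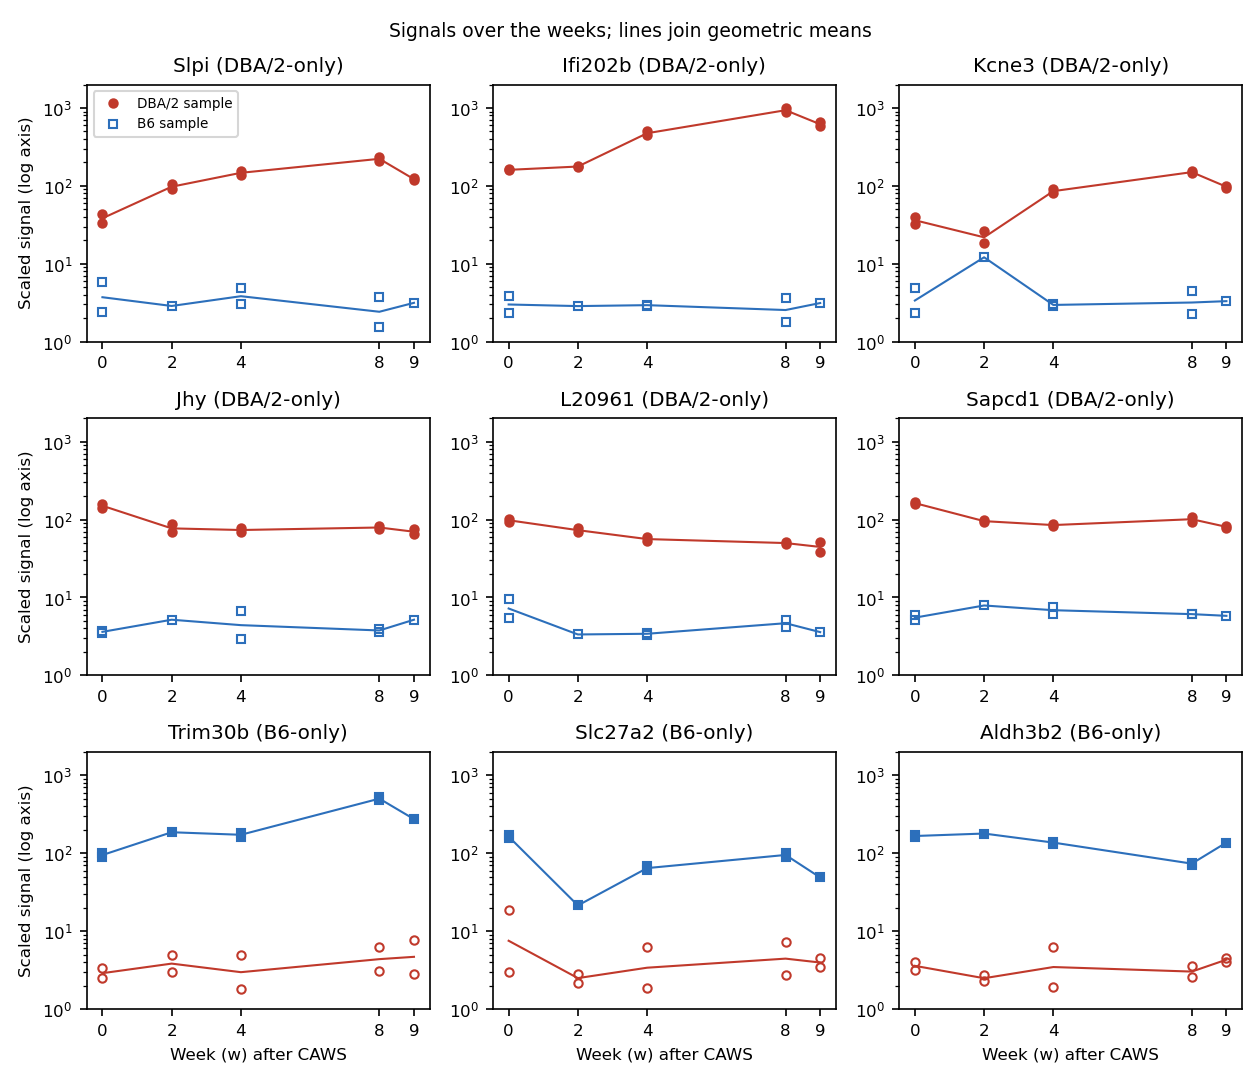
Scaled signals (log axis) of 9 members in each sample against the week after CAWS, with lines through the geometric mean of each week (DBA/2 circles, B6 squares, filled for the detecting strain). Slpi, Ifi202b and Kcne3 peak at 8 w in DBA/2 mice and Trim30b at 8 w in B6 mice, while the highest signal of the other strain at these probes is 18.8, at Slc27a2.

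Other probes of the HIN-200 and Trim groups were followed over the same weeks. Of the 14 HIN-200 probes tested besides Ifi202b, 3 were higher (9.71% of all probes) and 2 lower (12.0%) at 4 w and 8 w in DBA/2 mice, and 2 were higher (7.01%) and 0 lower (7.28%) in B6 mice. The Ifi205 probe detected on all arrays rose by 0.98 ± 0.09 log2 units in DBA/2 mice (adjusted p = 7.29e-05) and differed by 0.07 ± 0.09 in B6 mice (adjusted p = 0.716). Of the 11 probes of the Trim5-Trim12-Trim30 group besides Trim30b, 6 were higher and 1 lower in DBA/2 mice, and 4 were higher and 0 lower in B6 mice, beside the same shares of all probes. A Trim30a probe, Trim30a being the best studied gene of that group, rose by 1.27 ± 0.09 log2 units in DBA/2 mice (adjusted p = 9.79e-06) and by 0.68 ± 0.09 in B6 mice (adjusted p = 0.000887). The difference between strains in these changes was not tested.

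Other probes of the same genes, which the rule did not use, divided the members. Of the 29 DBA/2 genes, 16 had another probe on the array, 21 probes besides the pair of Mr1 in all, and of the 26 B6 genes 15 had, with 30 probes. Of these, 5 and 8 were detected on all 19 arrays and 7 and 12 on none. At 11 DBA/2 genes and 10 B6 genes another probe was detected in both strains. DBA/2 samples all lay above B6 samples at 4 of the 13 other DBA/2 probes that could be tested (3.24% of all probes), and B6 samples all lay above DBA/2 samples at 1 of the 15 other B6 probes (2.69%). At 1 of those 15, of Zfp715, the strains were separated the other way, with medians of 43.4 in DBA/2 and 25.7 in B6 mice.

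The 4 DBA/2 genes whose other probe separated the strains in the same direction were Sult4a1, Ryk, Kcne3 and Sapcd1. The second Sult4a1 probe was detected on all arrays, with 973.3 through 1382 to 1632 in DBA/2 mice and 145.5 through 261.2 to 307.8 in B6 mice. The second Ryk probe had 72.5 through 112.2 to 140.1 and 25.8 through 36.8 to 48.2. Kcne3 and Sapcd1 had second probes that missed the rule by 1 call, on B6 8 w replicate 1, with medians of 79.0 and 104.2 in DBA/2 mice and 6.09 and 9.09 in B6 mice. Both Sapcd1 probes map to nearly the same stretch, with starts 5 bases apart. Among the B6 genes only Rab6b had such a probe, with 38.1 through 61.9 to 98.2 in B6 mice and at most 21.7 in DBA/2 mice.

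At other genes a second probe was detected in both strains and overlapped between them. The second Slpi probe had 1856 through 5133 to 6620 in DBA/2 mice and 2709 through 3534 to 10161 in B6 mice. The second Aldh3b2 probe, 753 bases from the member, had medians of 145.4 and 119.5 in DBA/2 and B6 mice, that of Rrp7a 1397 and 1053, that of AI987944 166.1 and 171.6, and the one of Trim35 that was detected on all arrays 64.1 and 70.4. Of 3 further Nat8f4 probes, 2 were detected on all arrays with overlapping strains, as were 2 of 4 further Ssbp2 probes and 1 of 2 further Lnx2 and Cpne4 probes. Strains also overlapped at the other probes of Olfr694, Aqp9 and Tcstv1. The Olfr694 probe, which starts 41 bases from the member, had medians of 24.4 in DBA/2 and 20.7 in B6 mice. Both Aqp9 probes had 22.1 and 35.3 in DBA/2 mice and 24.9 and 34.8 in B6 mice. Those of Tcstv1 had 27.7 and 8.90 in DBA/2 mice and 20.9 and 8.49 in B6 mice. At Pdxdc1 the second probe was the brighter in B6 mice, with medians of 25.2 against 11.6 in DBA/2 mice, and was detected on 7 B6 and 4 DBA/2 arrays. Its DBA/2 9 w replicate 2 spot, and that of the second Rrp7a probe, were marked as outliers and left out. Further probes of Tln2 (2), Muc2 (3), Slc27a2 (2), Ptger3 (2), Ttc9, Jhy, Tnnt2, Thumpd1, Kifc3 and Cacna1b (1 each) were detected on no array, in either strain.

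**Figure D4:**
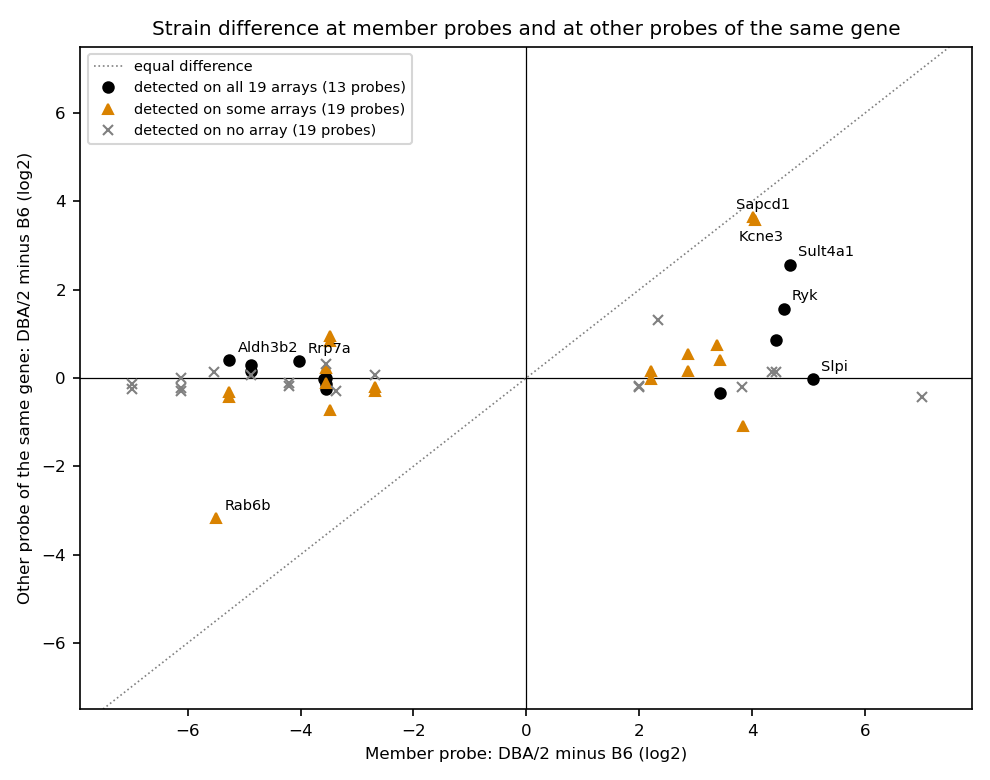
Log2 signal of DBA/2 minus B6 samples at member probes (horizontal) and at 51 other probes of the same genes (vertical), by whether the other probe was detected on all 19 arrays (13 probes), on some (19) or on none (19). Points for Kcne3, Sapcd1, Sult4a1, Ryk and Rab6b lie on the same side of 0 on both axes, whereas those of Slpi, Aldh3b2 and Rrp7a lie near 0 on the vertical axis.

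The second probes were followed over the weeks on the same RNA samples, and not all of them followed their member. Over the 5 weeks in DBA/2 mice, the Cpne4 probe detected on all arrays did not pass (adjusted p = 0.826). Nor did the second Ryk probe (adjusted p = 0.183), whereas both members passed. At Sult4a1 the second probe passed (adjusted p = 0.00141), whereas the member did not (adjusted p = 0.565). The second Kcne3 probe rose by 1.76 ± 0.31 log2 units at 4 w and 8 w in DBA/2 mice (adjusted p = 0.00346), beside 1.64 ± 0.32 at the member. The second Sapcd1 probe fell by 0.82 on that scale (SE 0.15, adjusted p = 0.00443), beside -0.81 ± 0.10 at the member. The starts of these pairs lie 122 and 5 bases apart. The mapped stretches of both Kcne3 probes do not overlap, whereas those of both Sapcd1 probes overlap almost throughout. The second Slpi probe rose in both strains, by 1.65 ± 0.08 log2 units in DBA/2 mice (adjusted p = 1.27e-06) and by 1.11 ± 0.08 in B6 mice (adjusted p = 2.94e-05), where the member was not well above background at any week.

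The replicates of some DBA/2 members differed by slide. Replicate 1 of 0 w, 2 w, 4 w and 8 w lay on 1 slide and replicate 2 on another, while both 9 w samples lay on further slides. Tcstv1 was higher in replicate 2 by 1.45 to 2.32 log2 units at the 4 earlier weeks and by 0.13 at 9 w, with 42.1 and 140.3 at 0 w and 42.2 and 46.2 at 9 w. Snph was higher by 1.29 to 1.71 log2 units and Aqp9 by 0.75 to 1.18, with 0.06 and 0.14 at 9 w. Over 0.5 log2 units at all 4 weeks, a limit chosen after seeing the data, replicate 2 was higher at these 3 members and lower at none. The same held for 4.84% of the 13438 probes detected on all DBA/2 arrays, and the reverse for 0.0744%. Atp9a (0.42 to 1.31) and Olfr694 (0.46 to 1.13) came close to that limit. None of these 5 members passed over the weeks in all samples or in DBA/2 samples alone, and neither fit has the slide as a term. Within the slides, the Tcstv1 signals of 0 w, 4 w and 8 w were 42.1, 29.2 and 19.3 for replicate 1 and 140.3, 110.4 and 96.5 for replicate 2. On both slides the signals at 4 w and 8 w lay below that at 0 w.

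**Figure D5:**
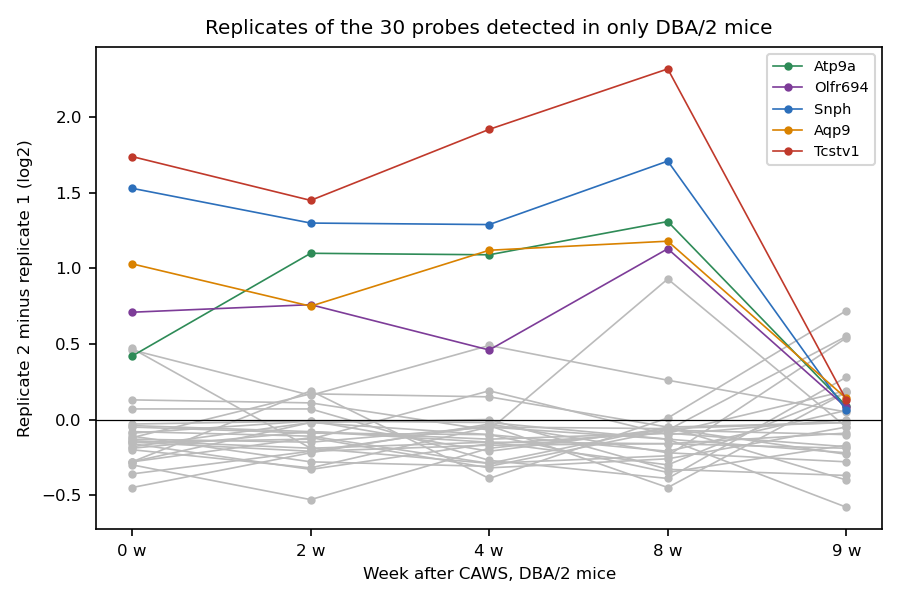
Difference between the DBA/2 replicates (replicate 2 minus replicate 1, log2 units) at each week for the 30 probes detected in only DBA/2 mice, with 5 genes in colour and the others in grey. Tcstv1, Snph, Aqp9, Atp9a and Olfr694 lie between 0.42 and 2.32 from 0 w to 8 w and between 0.06 and 0.14 at 9 w.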

How the data were processed

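RNA of circulating leukocytes was labelled with Cy3 and hybridized by the authors to single-color Agilent whole mouse genome arrays, 1 sample to an array. The deposited files hold, for each spot, the processed signal of Agilent Feature Extraction 9.5.3.1, an intensity on a linear scale with background subtracted and trends within the array removed, and the calls of saturation, outliers and signals above background. The deposited table of the series holds the same intensity per probe, within 1% at 40985 probes. Spots of a probe were averaged, with a call on at least 0.5 of them taken as detected, spots marked as outliers were left out, and log2 signals were centred on each array's 75th percentile over the 12120 probes detected on all 19 arrays. Gene names came from the RefSeq gene table of GRCm38.p6 by accession (24496 of 41174 probes), symbol (6234) or synonym (2386), and otherwise stayed as deposited (8058). Positions of probes were taken on mm8, the build of the deposited annotation. Probe sequences were not used here.

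Tests used limma 3.58.1 (R 4.3.3) on the 22976 probes detected in at least 2 of 18 samples (a mean for each of the strain and week groups, 8 residual degrees of freedom, prior 1.39), with Benjamini-Hochberg adjustment of p-values over all of them. The procedure was also run on simulated data, drawn with 1 baseline and 1 spread for each probe over both strains. That run cannot speak for probes whose spread differs between the strains. Tables and plots were made with pandas 2.3.3, matplotlib 3.10.9 and numpy 2.4.6 in Python 3.11.15. The number of arrays limits the precision.

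The genes named are the brightest members with a symbol, the largest rises and falls, members of listed families, genes with a second probe, members and other probes nearest to the limit, and members within 1 Mb of each other, with the remaining members named beside them. Of the B6 members, 2 are counted but not reported by name here. The members, lists and tests were chosen with earlier results of these data known.

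The alternatives were quantile normalization, normexp background correction (offset 50), centring on each array's median or on the 75th percentile of all probes, the deposited table unscaled, a floor of 10, outlier spots kept, all dim probes kept or only those detected in 9 of 18 samples, the 2 arrays of B6 0 w replicate 2 averaged to 1 call, Klr and H2- names kept, 1 array of the strain allowed to miss, a 2-fold distance between the strains, the detecting strain alone, the replicate number or slide as a block, array weights, the weaker detection call, and each sample left out in turn.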

Additional observations from a re-analysis of the deposited data

How the results depend on the processing

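Of the members, 30 probes were detected in only DBA/2 mice and 26 in only B6 mice, and leaving out single samples gave 30 to 43 and 26 to 31 probes, with 43 without B6 8 w replicate 1. The weaker detection call gave 3 and 10 probes, where none of the 3 and at most 4 of the 10 are members. Leaving out the B6 samples of 0 w and 8 w, an alternative chosen after seeing the data, gave 62 and 40. The number of members that changed over the weeks was 9 in DBA/2 and 0 in B6 mice, and the number that changed at 4 w and 8 w was 7 and 0. In DBA/2 mice these counts became 4 and 2 with normexp background correction, 5 over the weeks with the median of each array and 5 with no filter on dim probes, 19 and 12 with a floor of 10, and 16 and 11 in DBA/2 samples alone. With the slide as a random block the DBA/2 counts were 12 and 9. In B6 mice they became 9 and 4 with quantile normalization, 6 and 1 with the deposited table, 21 and 9 with a floor of 10, 8 and 4 in B6 samples alone, 3 and 1 with the slide as a random block, and 1 and 1 with array weights. Leaving out single samples gave 4 to 9 and 4 to 7 in DBA/2 mice and 0 to 1 and 0 in B6 mice. Shares of all probes called are at hand only for the main comparison and the fits to 1 strain alone, as given above. Whether the other counts are particular to the members can therefore not be told. The cause of these changes was not tested. With a filter at 9 of 18 samples the B6 members could not be fitted, since there are 8 B6 samples.

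With the replicate block, 10 and 7 members changed in DBA/2 mice and 0 and 0 in B6 mice. Same-numbered samples deviated together to unequal degrees, with 14 of 28 pairs of groups over a correlation of 0.1 (0.0167 to 0.409, median 0.091). The main comparison did not take the numbers as a pairing. In DBA/2 mice from 0 w to 8 w the number coincides with the slide, and the slide differences given above stay in its estimate of spread.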
